A study of Homo sapiens with 8 samples.

Results

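The G2 checkpoint holds cells with damaged DNA before mitosis, and 9 genes of its core were followed here in glioblastoma cells exposed to temozolomide (TMZ), a methylating drug. They comprise the damage-activated kinases ATM and ATR, their effector kinases CHEK1 and CHEK2, the CDK1-inhibiting kinases WEE1 and PKMYT1, and the CDK1-activating phosphatases CDC25A, CDC25B and CDC25C. They were chosen by symbol for their function, with earlier results of these data known, and all 9 were found among the 26364 gene symbols of the count data. Each of the 9 was among the 14201 genes with enough counts to be tested.

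As background, ATM is recruited to DNA double-strand breaks and ATR to single-stranded DNA at stalled replication forks. ATM phosphorylates CHEK2 and ATR phosphorylates CHEK1, and both effector kinases in turn inactivate CDC25 phosphatases. WEE1 and PKMYT1 place the inhibitory phosphates on CDK1 that CDC25 enzymes remove, so the balance between these enzymes sets the moment of mitotic entry. Much of this regulation is by phosphorylation and protein turnover, whereas the data here are levels of RNA.

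The libraries were made from total RNA of LN229, a human glioblastoma line, in the form of 2 stably transfected clones. Clone Surv-GFP (D6) carries a pcDNA3.1 plasmid for Survivin, the BIRC5 product, fused to eGFP with a working nuclear export signal, and its fusion protein is mainly cytoplasmic per the labels. Clone SurvNESmut-GFP (L2) carries the same fusion with the export signal inactivated by L96A and L98A, and its fusion protein is mainly nuclear. TMZ was added from a DMSO stock, and the control cells are labelled untreated. Both clones were kept under G418, both kept their own BIRC5 gene, and each was sampled without drug and after 48 h in 50 µM TMZ, which gave 4 groups of 2 libraries lettered a and b. Each form of Survivin was present in 1 clone, so the form of Survivin and the clone cannot be told apart. The study describes these data as biological replicates, each run in technical duplicate, and the sources used here do not say which of these the letters stand for, so the p-values measure the spread between these libraries, which may be technical.

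Between 15826923 and 18861603 reads per library fell on genes, and the 9 genes had between 122 counts (CDC25C, Surv-GFP with TMZ, b) and 4670 counts (CDC25B, Surv-GFP untreated, a). The TMZ-exposed SurvNESmut-GFP libraries differed more from each other than the other pairs did, with a chi-square per degree of freedom of 5.49 against 2.14 to 2.58, and library a of this pair had the largest share of reads outside genes, 14.3% against 11.2% to 12.8% in the other 7 libraries. CDKN1A, the p21 gene, a CDK inhibitor known to be induced by DNA damage, was at 86.6 and 77.3 CPM in untreated and 908 and 975 CPM in TMZ-exposed Surv-GFP cells, and at 117 and 119 CPM and 429 and 492 CPM in SurvNESmut-GFP cells. Counts of BIRC5 include reads of the plasmid, and its level differed between the clones as well. It was at 1152 and 1113 CPM in untreated and 1938 and 2029 CPM in exposed Surv-GFP libraries. In SurvNESmut-GFP libraries it was at 407 and 414 CPM without and 262 and 253 CPM with TMZ. Of the 6 glioma markers, VIM, NES, CD44 and SOX2 were at 19.4 CPM or more in all libraries, S100B ranged from 14.3 to 798 CPM and GFAP was at 0.921 CPM or less. MGMT, the repair enzyme for the main toxic TMZ lesion, had 0 counts in all 8 libraries, which allows up to 3 counts in each by counting error. The 13 markers of other cells were not uniformly silent. The defining markers AIF1 (0 counts), PTPRC, CDH5, RBFOX3 and MOG were at 0.63 CPM or less, but SYT1 ranged from 33.2 to 162 CPM and CD68 from 11.9 to 21.4 CPM. MBP had 0 counts in Surv-GFP and 6.22 to 7.10 CPM in SurvNESmut-GFP libraries. With TMZ in Surv-GFP cells, SYT1 went from 43.5 and 42.2 CPM to 162 and 159 CPM and SNAP25, the other neuron marker above 1 CPM, from 19.2 and 18.2 CPM to 8.45 and 10.2 CPM, and the part of such shifts in the results that follow was not tested.

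The 4 promoter stretches printed next are shown because they place the sequence elements known from cell cycle genes next to genes whose RNA levels are given here. Promoter windows of RefSeq (GRCh38.p14, 250 bases before to 50 bases after each start) were matched for 7 of the 9 genes, with 16 windows in all. On both strands, the cell cycle homology region or CHR (TTTGAA or TTCGAA) was present in 16.4% of all 35116 windows, the CCAAT box (CCAAT) in 34.6%, and an E2F site (TTTGGCGC, TTTCCCGC, TTTGCCGC or TTTCGCGC) in 3.31%. The 30 bases of each stretch run 5′ to 3′ on the strand of the gene, with the element in capitals.
CDC25C, CHR, chr5:138331817-138331846, minus strand: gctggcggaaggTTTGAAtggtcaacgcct
CDC25B, CHR, chr20:3796260-3796289, plus strand: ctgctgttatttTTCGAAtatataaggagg
CDC25A, E2F site, chr3:48188443-48188472, minus strand: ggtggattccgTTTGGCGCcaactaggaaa
ATM, CHR, chr11:108223035-108223064, plus strand: agtcacgcagggTTTGAAccggaagcggga
The CHR of CDC25C lay 30 bases before 1 annotated start and, as the same element, 43 bases after another. It lay 38 bases before the start in CDC25B and 20 before it in ATM, and the E2F site lay 44 bases before the start of CDC25A. A CHR was found in 2 of 4 CDC25C windows, 1 of 4 CDC25B windows and 1 of 2 ATM windows, and a CCAAT box in windows of all 7 genes but ATR. None of the printed elements overlapped a CCAAT box. A match is a match of letters and does not show that a factor binds there.

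Upon TMZ, the G2 checkpoint genes did not move as a block. CDC25C and WEE1 were lower and PKMYT1 was higher in both clones. CHEK1 was lower in Surv-GFP and near its untreated level in SurvNESmut-GFP cells. By the adjusted p of edgeR's quasi-likelihood F test at a threshold of 0.05, 1 of the 9 genes was higher and 4 were lower in Surv-GFP cells, where 30.1% and 28.9% of all tested genes were called in these directions. The 5 of 9 called (55.6%) were thus near the share of all genes. In SurvNESmut-GFP cells, 3 were higher and 4 lower (77.8% called), which was above the 18.6% and 19.1% of all tested genes. The 9 genes had a median log2 fold change of -0.08 with Surv-GFP and of -0.01 with SurvNESmut-GFP, beside 0.00 in both for all tested genes. In these bulk samples, fewer cells of a cell cycle phase and less RNA per cell cannot be told apart.

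**Figure D1:**
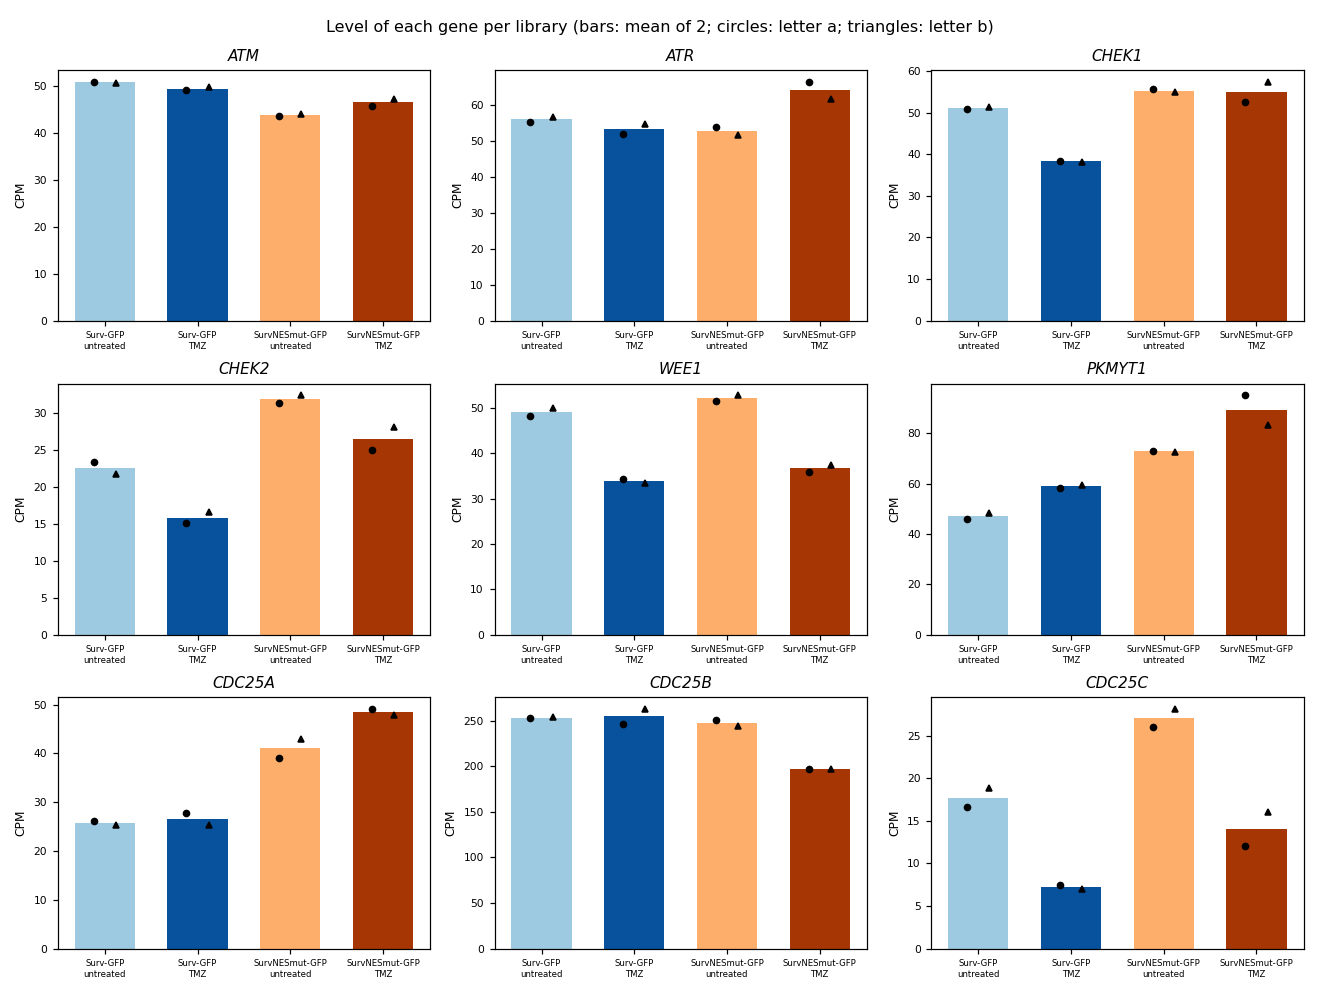
RNA level of the 9 genes in each of the 8 libraries, in CPM (counts scaled to a common library size, linear axis from 0). Bars are means of 2 libraries, circles library a and triangles library b; CDC25C and WEE1 were lower with TMZ in both clones, and CHEK1 in Surv-GFP (38.2 and 38.3 CPM against 50.9 and 51.3 CPM).

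Of the kinases at the top of the pathway, ATM passed the test for TMZ in neither clone and ATR rose in SurvNESmut-GFP cells. ATM was at 50.9 and 50.7 CPM in untreated and 49.0 and 49.8 CPM in TMZ-exposed Surv-GFP cells, and at 43.6 and 44.1 CPM and then 45.7 and 47.3 CPM in SurvNESmut-GFP cells. Untreated and exposed libraries did not overlap in either clone, but both TMZ effects were within the error of the fit. The log2 fold change was -0.04 (95% interval -0.16 to 0.08, adjusted p = 0.577) in Surv-GFP and 0.08 (-0.04 to 0.21, adjusted p = 0.291) in SurvNESmut-GFP cells. In untreated cells, ATM was lower in SurvNESmut-GFP by a log2 fold change of -0.21 ± 0.06 (SE, n = 2 per group, adjusted p = 0.00442). With TMZ this value was -0.09 (adjusted p = 0.189), and the change of 0.12 between both did not pass either (adjusted p = 0.267).

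ATR was at 55.4 and 56.8 CPM in untreated and 51.8 and 54.6 CPM in TMZ-exposed Surv-GFP cells, a log2 fold change of -0.08 that did not pass (adjusted p = 0.301). In SurvNESmut-GFP cells it was at 54.0 and 51.7 CPM without and 66.5 and 61.6 CPM with TMZ. Here both exposed libraries lay above all 6 others. ATR rose by 21.3% (log2 fold change 0.28 ± 0.06, SE, adjusted p = 0.00173), and the TMZ effects of the clones differed by 0.35 ± 0.09 on the log2 scale (adjusted p = 0.00399). Without the TMZ-exposed SurvNESmut-GFP library a, which held the higher value, the call of the difference was kept. Of the ATR exons, 16.4% overlap a processed pseudogene on the opposite strand in GENCODE v29, and the sources used here do not say whether the reads were counted by strand.

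The effector kinases CHEK1 and CHEK2 were both lower upon TMZ in Surv-GFP cells. CHEK1 was at 50.9 and 51.3 CPM in untreated and 38.3 and 38.2 CPM in exposed Surv-GFP cells, so that the groups were well apart. CHEK1 fell by 25.1% in this clone (log2 fold change -0.42 ± 0.06, SE, adjusted p = 2.52e-05). In SurvNESmut-GFP cells its libraries overlapped, with 55.6 and 55.0 CPM without and 52.5 and 57.4 CPM with TMZ. The log2 fold change there was -0.01, with a 95% interval of -0.14 to 0.12. The TMZ effects of the clones differed by 0.41 ± 0.09 on the log2 scale (adjusted p = 0.00156), the largest difference among the 9 genes. Without each library in turn this difference ranged from 0.34 to 0.47 and stayed past the threshold. On the same strand, STT3A overlaps 1.22% of the CHEK1 exon bases and was higher upon TMZ in Surv-GFP cells (log2 fold change 0.42).

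CHEK2 was at 23.4 and 21.7 CPM in untreated and 15.1 and 16.6 CPM in exposed Surv-GFP cells. It fell by 29.8% in this clone (log2 fold change -0.51 ± 0.09, SE, adjusted p = 0.000163). In SurvNESmut-GFP cells it was at 31.3 and 32.3 CPM without and 25.0 and 28.1 CPM with TMZ, and fell by 16.8% (log2 fold change -0.26 ± 0.08, SE, adjusted p = 0.0187). This second call was not firm. It was lost with DESeq2 (adjusted p = 0.0787), without either untreated SurvNESmut-GFP library (0.0586 without a, 0.112 without b) and without the exposed library a (log2 fold change -0.18, adjusted p = 0.163). The difference between the TMZ effects was 0.25 (95% interval -0.02 to 0.51, adjusted p = 0.138) and did not pass, but without the exposed SurvNESmut-GFP library a it was 0.33 and did (adjusted p = 0.0478). CHEK2 has near-identical pseudogene copies, and the sources used here do not say how reads shared with them were counted, so its level is uncertain. HSCB, on the opposite strand, overlaps 6.70% of its exon bases, with TMZ effects of 0.13 and -0.17 that did not pass.

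WEE1 and PKMYT1, the pair of kinases that inhibit CDK1, moved in opposite directions. WEE1, the nuclear one, was at 48.3 and 50.1 CPM in untreated and 34.2 and 33.4 CPM in exposed cells of Surv-GFP. In the SurvNESmut-GFP clone it was at 51.6 and 52.7 CPM and then 35.8 and 37.5 CPM. All 4 exposed libraries lay below all 4 untreated ones. WEE1 fell by 31.2% in Surv-GFP (log2 fold change -0.54 ± 0.06, SE, adjusted p = 1.48e-06) and by 29.7% in SurvNESmut-GFP cells (-0.51 ± 0.06, SE, adjusted p = 7.92e-06). The difference between these effects was 0.03, with a 95% interval of -0.16 to 0.22, and did not pass (adjusted p = 0.825).

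PKMYT1, which acts at the membranes of the cytoplasm, was at 46.0 and 48.5 CPM in untreated and 58.4 and 59.5 CPM in exposed cells of Surv-GFP. In the SurvNESmut-GFP clone it was at 73.1 and 72.6 CPM without and 95.04 and 83.1 CPM with TMZ. Both groups of SurvNESmut-GFP libraries lay above all Surv-GFP libraries, and within each clone the exposed libraries lay above the untreated ones. PKMYT1 rose by 24.7% in Surv-GFP (log2 fold change 0.32 ± 0.07, SE, adjusted p = 0.000612) and by 22.4% in SurvNESmut-GFP cells (0.29 ± 0.06, SE, adjusted p = 0.00145). The difference between these effects was -0.03 (95% interval -0.22 to 0.17, adjusted p = 0.847). In GENCODE v29, 24.5% of the PKMYT1 exon bases overlap PAQR4 and 7.15% overlap KREMEN2, both on the opposite strand. PAQR4 itself fell upon TMZ in Surv-GFP cells (log2 fold change -0.55, adjusted p = 1.82e-07), opposite to PKMYT1. Its value in SurvNESmut-GFP cells was -0.14 (adjusted p = 0.0538). KREMEN2, at 1.89 to 10.1 CPM, had TMZ effects of -0.78 (adjusted p = 0.00648) in Surv-GFP and -0.20 (adjusted p = 0.307) in SurvNESmut-GFP cells. Between the clones, KREMEN2 was higher in SurvNESmut-GFP cells (1.45 untreated and 2.03 with TMZ), as PKMYT1 was. PAQR4 was lower there untreated (-0.24) and higher with TMZ (0.18). The part of overlapping reads in the PKMYT1 values was not tested.

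The 3 CDC25 genes each behaved differently. CDC25C, whose product acts at mitotic entry, had the largest TMZ effect of the 9 genes in both clones. It was at 16.6 and 18.9 CPM in untreated and 7.43 and 7.002 CPM in exposed Surv-GFP cells, and at 26.1 and 28.1 CPM and then 12.1 and 16.01 CPM in SurvNESmut-GFP cells. In each clone the exposed libraries lay below the untreated ones, and the exposed SurvNESmut-GFP libraries lay below the untreated Surv-GFP ones as well. CDC25C fell by 59.2% in Surv-GFP (log2 fold change -1.29 ± 0.13, SE, adjusted p = 3.84e-07) and by 48.3% in SurvNESmut-GFP cells (-0.95 ± 0.11, SE, adjusted p = 6.44e-06). The difference between the effects was 0.34 (95% interval -0.04 to 0.72, adjusted p = 0.150). This value depended on single libraries. It was 0.53 without the exposed SurvNESmut-GFP library a, and over all libraries left out in turn it ranged from 0.13 to 0.53. FAM53C, on the opposite strand, overlaps 8.78% of the CDC25C exon bases and was higher upon TMZ in both clones (log2 fold changes 0.40 and 0.15).

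CDC25A, which also acts in S phase and is degraded upon damage, was at 26.1 and 25.4 CPM in untreated and 27.8 and 25.3 CPM in exposed Surv-GFP cells. These libraries overlapped, and the log2 fold change of 0.04 did not pass (95% interval -0.12 to 0.21, adjusted p = 0.659). In SurvNESmut-GFP cells CDC25A was at 39.0 and 43.1 CPM without and 49.0 and 48.0 CPM with TMZ, a rise of 18.3% (log2 fold change 0.24 ± 0.07, SE, adjusted p = 0.0122). That call was lost with DESeq2 (adjusted p = 0.0679) and without the untreated SurvNESmut-GFP library a (log2 fold change 0.17, adjusted p = 0.156). The TMZ effects of the clones differed by 0.20 (95% interval -0.03 to 0.42, adjusted p = 0.161), which did not pass.

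CDC25B, whose product starts CDK1 activation at the centrosome, had the highest level of the 9 per exon length, as given further on. It was at 253 and 254 CPM in untreated and 247 and 262 CPM in exposed Surv-GFP cells, and at 251 and 244 CPM without and 197 and 197 CPM with TMZ in SurvNESmut-GFP cells. The exposed SurvNESmut-GFP libraries lay below all 6 others, while the Surv-GFP groups overlapped. The log2 fold change in Surv-GFP cells was 0.01 (95% interval -0.09 to 0.11). In SurvNESmut-GFP cells CDC25B fell by 20.3% (log2 fold change -0.33 ± 0.05, SE, adjusted p = 5.77e-05). The TMZ effects of the clones differed by -0.33 ± 0.07 on the log2 scale (adjusted p = 0.00111), and this ranged from -0.38 to -0.26 without each library in turn.

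In the test of the difference between TMZ effects, 2 of the 9 genes, ATR and CHEK1, were called higher in SurvNESmut-GFP cells and 1, CDC25B, lower. Of all tested genes 16.6% were called higher and 20.2% lower in this comparison, so the share among the 9 was near that of all genes. The median difference of the 9 genes was 0.20, beside -0.00 for all tested genes. For the other 6, the difference did not pass, and the intervals of WEE1, PKMYT1 and ATM lay within -0.22 and 0.30 on the log2 scale.

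**Figure D2:**
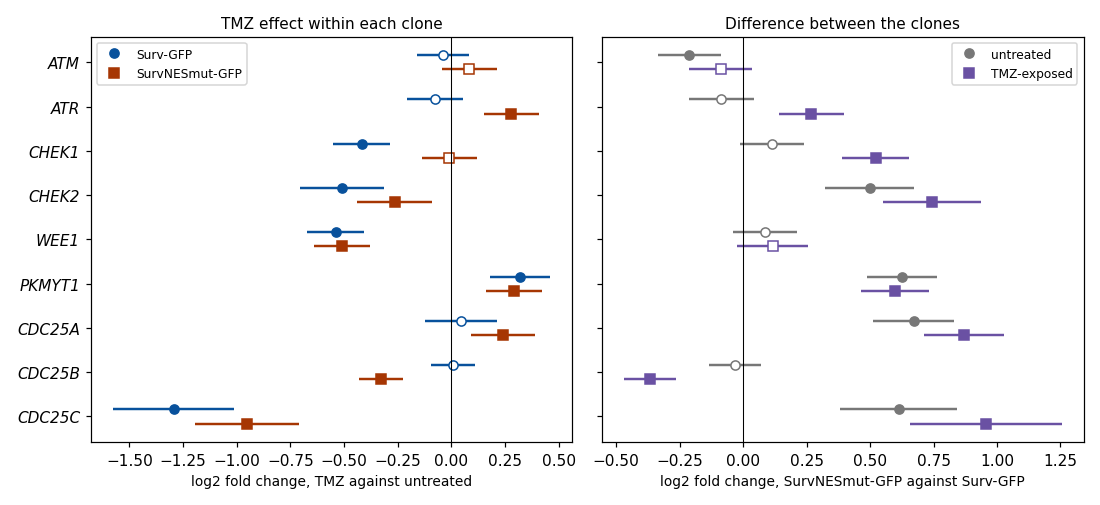
Log2 fold changes of the 9 genes with 95% intervals (horizontal lines). Left, TMZ-exposed against untreated in Surv-GFP (blue circles) and SurvNESmut-GFP (brown squares); right, SurvNESmut-GFP against Surv-GFP when untreated (grey circles) and TMZ-exposed (purple squares). Filled symbols passed the adjusted p of 0.05 and open ones did not; CHEK1, ATR and CDC25B lay apart between clones on the left, with differences of 0.41, 0.35 and -0.33.

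The clones already differed before TMZ. Without the drug, CHEK2, PKMYT1, CDC25A and CDC25C were higher in SurvNESmut-GFP cells and ATM was lower, relative to Surv-GFP. Of all tested genes, 34.7% were called higher and 29.4% lower in this comparison. The log2 fold changes were 0.50 ± 0.08 (SE) for CHEK2, 0.63 ± 0.07 for PKMYT1, 0.67 ± 0.08 for CDC25A and 0.61 ± 0.11 for CDC25C, with adjusted p-values of 6.5e-05, 3.51e-07, 7.78e-07 and 0.00011. ATR (-0.09), CHEK1 (0.11), WEE1 (0.09) and CDC25B (-0.03) did not pass. The median over the 9 was 0.11, beside 0.03 for all tested genes.

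With TMZ in both clones, 6 of the 9 genes were higher in SurvNESmut-GFP cells and 1 was lower, beside 34.5% higher and 34.7% lower among all tested genes. The higher ones were CDC25C (log2 fold change 0.95 ± 0.14, SE), CDC25A (0.87 ± 0.07), CHEK2 (0.74 ± 0.09), PKMYT1 (0.60 ± 0.06), CHEK1 (0.52 ± 0.06) and ATR (0.27 ± 0.06), with adjusted p-values from 2.52e-08 (CDC25A) to 0.000881 (ATR). The lower one was CDC25B (-0.37 ± 0.05, adjusted p = 4.47e-06). ATM (-0.09) and WEE1 (0.12) did not pass. The median over the 9 was 0.52, beside -0.00 for all tested genes. This comparison and the preceding ones share libraries, so their calls are not separate evidence.

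The order of the 4 groups differed from gene to gene. For CDC25C and CHEK2 it ran from untreated SurvNESmut-GFP at the top (27.1 and 31.8 CPM on average) to exposed Surv-GFP at the bottom (7.22 and 15.8 CPM). For PKMYT1 and CDC25A, exposed SurvNESmut-GFP was at the top (89.1 and 48.5 CPM) and untreated Surv-GFP at the bottom (47.2 and 25.8 CPM), where for CDC25A both Surv-GFP groups did not differ beyond their spread. For WEE1 the order followed the drug, with 52.2 and 49.2 CPM in the untreated and 36.7 and 33.8 CPM in the exposed groups, and the test between the clones passed neither with nor without it. ATM ran from 50.8 and 49.4 CPM in Surv-GFP to 46.5 CPM in exposed and 43.8 CPM in untreated SurvNESmut-GFP cells. CHEK1 had 1 low group, exposed Surv-GFP, CDC25B had 1 low group and ATR 1 high group, both of them exposed SurvNESmut-GFP.

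Levels between genes were compared per kilobase of merged GENCODE v29 exons. On this scale CDC25B was highest in all groups, with 58.7 and 59.0 CPM per kb in untreated and exposed Surv-GFP and 57.4 and 45.8 CPM per kb in SurvNESmut-GFP cells. PKMYT1 followed with 9.38 to 17.7 CPM per kb. ATM was lowest in all 4 groups, at 1.83 to 2.12 CPM per kb. With TMZ, CDC25C fell to 2.16 CPM per kb in Surv-GFP cells, near ATM. All annotated exons enter these lengths, so the level of a gene with long minor isoforms is understated.

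Over the 8 libraries, the pairs of the 9 genes with the highest Pearson r of log2 CPM were CHEK1 with CHEK2 (0.94), PKMYT1 with CDC25A (0.93), WEE1 with CDC25C (0.91) and CHEK2 with CDC25C (0.90). ATR and CDC25B had the lowest (-0.84). These are descriptions over 8 points that fall into 4 groups of 2. Among all tested genes, the 3 most like CDC25C were CCNB2 (0.995), a mitotic cyclin, KIF14 (0.994), a mitotic kinesin, and ADAM10 (0.994), a membrane protease. The 3 most like WEE1 were FAM64A (0.997), ARL6IP1 (0.996) and ANP32E (0.995). CHEK1 was most like MPP1 (0.991), PRKD3 (0.991) and PEBP1 (0.990), and CHEK2 most like FAM109A (0.997), TSPAN3 (0.997) and CCDC127 (0.996). For PKMYT1 they were PLCB3, LOC284454 and DHX37 (each 0.995), for CDC25A CHTF18 (0.998), NIT2 (0.996) and SNAP29 (0.996), and for CDC25B C10orf90 (0.988), DCP2 (0.979) and MEPCE (0.975). For ATM they were DPYD (0.995), RGR (0.993) and RNF43 (0.989), and for ATR TPCN1 (0.979), TMEM249 (0.964) and UNC13D (0.961).

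The genes around the 9 were taken from 7 lists with 88 genes, all of them tested. Upon TMZ, 30.1% of all tested genes were higher and 28.9% lower in Surv-GFP, and 18.6% and 19.1% in SurvNESmut-GFP cells. The difference between the TMZ effects was called higher for 16.6% of all tested genes and lower for 20.2%. The counts of each list stand beside these shares. Among the 22 damage sensors and mediators upstream of the kinases, 1 was higher and 9 were lower upon TMZ in Surv-GFP, and 4 were higher and 3 lower in SurvNESmut-GFP cells, with median log2 fold changes of -0.10 and 0.08. RAD50, of the complex that brings ATM to breaks, rose in both clones (log2 fold changes 0.23 and 0.34). It was at 106 and 104 CPM without and 124 and 122 CPM with TMZ in Surv-GFP cells. MRE11A and NBN, of the same complex and named after their values were seen, were called lower in Surv-GFP cells (-0.40 and -0.12). In SurvNESmut-GFP cells they did not pass (0.02 and -0.05). H2AFX, the histone that ATM and ATR phosphorylate at breaks, went from 160 and 160 CPM to 89.8 and 91.7 CPM in Surv-GFP cells and fell in both clones (-0.82 and -0.39). The difference between the clones passed for 7 of the 22 genes towards SurvNESmut-GFP and for 1 towards Surv-GFP. Together this was 36.4% of the 22, near the share called in both directions together among all tested genes. By direction the list was less even than the 16.6% higher and 20.2% lower of all tested genes. Its median difference was 0.17, beside -0.00 for all tested genes.

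Of the 7 genes of related kinases and of the factors that mature them, 1 was higher and 3 were lower in Surv-GFP, and 4 were higher in SurvNESmut-GFP cells, where the other 3 did not pass. SMG1, a kinase of RNA surveillance, rose in both clones (0.44 and 0.21). PRKDC, the catalytic subunit of DNA-PK, went from 1095 and 1189 CPM to 924 and 935 CPM in Surv-GFP cells and from 1119 and 1117 CPM to 1312 and 1186 CPM in SurvNESmut-GFP cells. It fell in the first (-0.30, adjusted p = 0.000141) and rose in the second (0.16, adjusted p = 0.0251), and the difference of 0.46 passed (adjusted p = 0.000165).

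CDK1 itself, the target of WEE1, PKMYT1 and the CDC25 enzymes, was lower upon TMZ in both clones together with most genes of mitotic entry. In this list of 15 genes, 2 were higher and 12 lower in Surv-GFP, and 11 were lower in SurvNESmut-GFP cells, where the other 4 did not pass, with medians of -0.93 and -0.75. CDK1 went from 101 and 107 CPM to 59.9 and 60.1 CPM in Surv-GFP and from 146 and 156 CPM to 103 and 118 CPM in SurvNESmut-GFP cells. Its log2 fold changes were -0.79 ± 0.06 (SE) and -0.45 ± 0.06, and they differed by 0.34 (adjusted p = 0.00613). CCNB1, the cyclin of CDK1, fell by 1.79 and 1.53 on the log2 scale. PLK1, a mitotic kinase that promotes WEE1 turnover and CDC25C activation, went from 132 and 131 CPM to 23.1 and 22.6 CPM in Surv-GFP cells and from 205 and 203 CPM to 54.5 and 48.9 CPM in SurvNESmut-GFP cells. Its log2 fold changes were -2.53 and -1.98, and the difference of 0.55 passed (adjusted p = 9.62e-05). CKS1B, a small CDK-binding protein, rose in Surv-GFP cells (0.45, adjusted p = 6.48e-05), and its value in SurvNESmut-GFP cells was 0.05 (adjusted p = 0.600). The other higher gene in Surv-GFP was ENSA (0.22), an inhibitor of the phosphatase PP2A, named after its value was seen.

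A list of damage-induced inhibitors of the cell cycle and their regulators, with CDKN1A and GADD45A, moved the other way. Of its 8 genes, 6 were higher in Surv-GFP, where the other 2 did not pass, and 4 were higher and 1 lower in SurvNESmut-GFP cells. Without RPRM, whose counts in Surv-GFP cells were at or near 0, the other 7 had medians of 1.88 and 1.27 (Surv-GFP first). The second median was the value of SFN, named after its value was seen, which had only 4 to 15 counts per library. SFN was among the genes called higher in Surv-GFP and did not pass in SurvNESmut-GFP cells (adjusted p = 0.0534). CDKN1A rose by a log2 fold change of 3.52 ± 0.07 (SE) in Surv-GFP and 1.96 ± 0.07 in SurvNESmut-GFP cells, a difference of -1.56 (adjusted p = 5.06e-09). GADD45A, which can inhibit the CDK1 complex, went from 36.3 and 40.2 CPM to 511 and 565 CPM in Surv-GFP and from 57.4 and 61.9 CPM to 166 and 179 CPM in SurvNESmut-GFP cells. RPRM, a gene linked to G2 arrest, was the gene that fell in SurvNESmut-GFP cells, from 6.02 and 5.78 CPM to 1.05 and 1.51 CPM (log2 fold change -2.20 ± 0.24, SE, adjusted p = 3.23e-06).

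Among 14 genes for the binding and turnover of WEE1 and CDC25 proteins (14-3-3 proteins, ubiquitin ligase subunits and phosphatase subunits among them), 1 was higher and 9 were lower in Surv-GFP, and 10 were lower in SurvNESmut-GFP cells, where 4 did not pass, with a median of -0.22 and -0.21. YWHAE, the epsilon isoform of the 14-3-3 proteins that hold phosphorylated CDC25, went from 399 and 398 CPM to 272 and 272 CPM in Surv-GFP and from 659 and 668 CPM to 483 and 470 CPM in SurvNESmut-GFP cells (log2 fold changes -0.55 and -0.48).

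All 10 genes of G2 and mitosis were lower in both clones, with medians of -1.52 and -0.82 (Surv-GFP first), and their summed level went from 3027 and 3306 CPM to 1262 and 1232 CPM and from 3836 and 3874 CPM to 2130 and 2160 CPM. KIF20A, a kinesin of cytokinesis, fell most by p in both (-3.30 and -2.12). Of 12 S phase genes, 1 was higher and 11 were lower in Surv-GFP, and 1 was higher and 6 were lower in SurvNESmut-GFP cells, with medians of -0.61 and -0.13. MCM6, of the replicative helicase, fell in both clones (-1.10 and -0.83), CDC6, which loads that helicase, rose in Surv-GFP cells (0.71, adjusted p = 7.52e-08), and RRM2, of ribonucleotide reductase, rose in SurvNESmut-GFP (0.21) and fell in Surv-GFP cells (-0.23). The difference between the TMZ effects passed for 10 of the 12 S phase genes towards SurvNESmut-GFP and for 1, CDC6, towards Surv-GFP. The part of these shifts in the values of the 9 checkpoint genes was not tested.

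**Figure D3:**
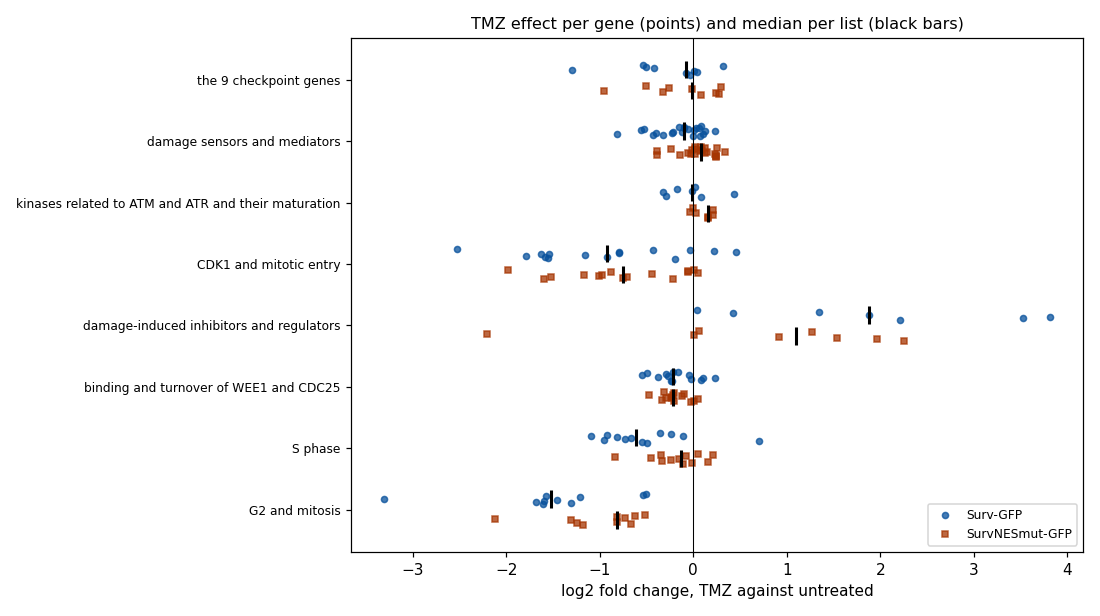
Log2 fold change upon TMZ of each gene (blue circles, Surv-GFP; brown squares, SurvNESmut-GFP) in the 9 checkpoint genes and the 7 lists around them, with the median as a black bar. RPRM in Surv-GFP is left out of the list of damage-induced inhibitors because its counts there were at or near 0. The G2 and mitosis genes lay below 0 in both clones and the damage-induced inhibitors mostly above it. The medians of these inhibitors were 1.88 in Surv-GFP, without RPRM, and 1.10 in SurvNESmut-GFP, with RPRM (1.27 without it).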

How the data were processed

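The authors deposited whole-number read counts per gene symbol, not normalized, for 8 libraries. The submitters' processing notes name STAR 2.5.0b, Cufflinks 2.2.1 and edgeR without saying which made the counts, and the build, annotation and strandedness were named in none of the sources used here. Their 5 comparison tables (log2 fold changes, average expression, F, p and adjusted p) were not used. Between 11.2% and 14.3% of reads lay outside genes and 1.19% to 1.28% were ambiguous, and these 2 rows were left out.

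Libraries were grouped by their labels. In R 4.3.3, edgeR 4.0.16 was used with TMM factors, its filter on low counts by group, one model of 4 group means and the quasi-likelihood F test as in edgeR before version 4. Benjamini-Hochberg adjustment ran over all 14201 tested genes in each of 5 contrasts, and 95% intervals came from the same fit. The fit was tested on simulated data in which few genes changed, all by the same size. That test does not cover data in which as many genes were called as here. CPM values are counts scaled to a common size of library, with TMM factors. Letters of 1 group differed beyond sampling noise and were kept as 2 libraries. Intervals cover the spread between these libraries as estimated by the fit, which may be technical. The limit of 3 counts for a count of 0 covers counting error only.

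Genes were named by a rule: the 9 members; CDKN1A, CDK1, CCNB1 and PLK1; in each list, for each clone's TMZ effect and each direction, the gene of smallest p if past the threshold; and the 3 genes with the highest Pearson r with each member. A few genes that the rule or the marker lists hold are not reported here. The members and lists were chosen with earlier results of these data known. Alternatives were other scaling factors, other filters, DESeq2 1.42.0, the edgeR 4 method, the replicate letter as a block, fits of the compared groups alone, and the removal of single libraries.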

Additional observations from a re-analysis of the deposited data

Results flagged for a closer look

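For 3 of the 9 genes the TMZ effect differed between the clones by the interaction test of edgeR. By this test, 16.6% of all tested genes were called higher in SurvNESmut-GFP cells and 20.2% lower. The share among the 9 was thus near that of all genes. CHEK1 differed by 0.41 ± 0.09 (log2, SE, adjusted p = 0.00156), with both exposed Surv-GFP libraries (38.3 and 38.2 CPM) below all 6 others. ATR differed by 0.35 ± 0.09 (adjusted p = 0.00399), with both exposed SurvNESmut-GFP libraries above all others. CDC25B differed by -0.33 ± 0.07 (adjusted p = 0.00111), with both exposed SurvNESmut-GFP libraries (197 CPM each) below all others.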

How the results depend on the processing

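Of 711 values of the 9 genes under the alternatives, 687 kept their direction and side of the threshold, 6 lost and 2 gained a call, and 16 changed sign, all of them values that did not pass the test. The TMZ effect of CDC25B in Surv-GFP cells was -0.016 with RLE factors, -0.013 with library size alone, -0.016 without a filter, -0.035 with a filter of 1 CPM in 2 libraries and -0.016 with DESeq2. With library size alone, CHEK1 upon TMZ in SurvNESmut-GFP cells was 0.026 and the difference of TMZ effects of PKMYT1 was 0.028, and with the 1 CPM filter the latter was 0.018. With each library left out in turn, the difference of TMZ effects ranged from -0.13 to 0.066 for PKMYT1 and from -0.0011 to 0.061 for WEE1, and the TMZ effect ranged from -0.026 to 0.079 for CDC25A and from -0.069 to 0.053 for CDC25B in Surv-GFP and from -0.070 to 0.056 for CHEK1 in SurvNESmut-GFP cells. The number of the 9 genes higher in that difference ranged from 2 to 4, with 4 without the exposed SurvNESmut-GFP library a. Leaving 1 library in a group assumes that it varies like the other groups. The cause of these shifts was not tested. Deviations of libraries with the same letter correlated between -0.07 and 0.08, so no shared effect of a letter was seen. These values cannot show whether the letters were paired by design. With the letter as a replicate block, no call of the 9 genes changed. In that fit, 4186 genes were higher and 4017 lower upon TMZ in Surv-GFP cells. With 2 libraries per group, TMZ effects as small as those of ATM (-0.04 and 0.08) did not pass the test.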
